A study of Mus musculus with 4 samples.

Results

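The calmodulin and calcium/calmodulin-dependent kinase genes Calm2, Calm3, Camk2b, Camk2d, Camk2g, Camk4 and Camkk2 were followed through 2 lists of RNA immunoprecipitation (RIP-seq) peaks from livers of male C57BL/6 mice. One list came from mice given an adeno-associated virus (AAV) carrying NAT10, the enzyme that acetylates cytidine in RNA to ac4C, and the other from mice given AAV-GFP, the control. Each list held peaks of 1 immunoprecipitated library over 1 input library, so 4 libraries stood behind all values and none was replicated. The labels' protocols describe an antibody to a protein of interest but also name an ac4C library type, and they mention RNA of db/db and lean animals, whereas the titles name only the viruses; neither age, number of animals nor the promoter of the vector is stated there. The 7 genes were the named members of this family whose rows were taken from both lists by gene name. They were selected from results of these peak lists, so that their holding a peak is a description and not a finding. They are 7 of the 8889 genes with a peak in either list.

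Calmodulin is a small calcium sensor that changes shape when it binds calcium and then switches on its target enzymes. In mammals separate calmodulin genes encode the same protein. CaM kinase II is a ring of subunits from several genes, and it can stay active after a calcium pulse by phosphorylating itself; CaM kinase IV acts on transcription factors in the nucleus, and the kinase kinase encoded by Camkk2 phosphorylates CaM kinases I and IV and AMP-activated protein kinase. In mouse hepatocytes CaM kinase II has been linked to glucose output in fasting and under glucagon.

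Start sites of 4 of the 7 genes (Calm3, Camk2b, Camk2d and Camkk2) were present in the RefSeq promoter table (GRCm38.p6, the assembly of mm10). They are shown because Camk2d was the member with a peak next to its start site in that table, and because Calm3 and Camk2b had a peak in AAV-NAT10 alone. Each line runs 5′ to 3′ on the transcribed strand from 110 bases before the start through the first 30 transcribed bases (the first 50 for Camk2d), and capitals mark a GC box (GGGCGG or its reverse complement, searched on both strands, overlapping matches counted).
Calm3, chr7:16924003-16924142, minus strand: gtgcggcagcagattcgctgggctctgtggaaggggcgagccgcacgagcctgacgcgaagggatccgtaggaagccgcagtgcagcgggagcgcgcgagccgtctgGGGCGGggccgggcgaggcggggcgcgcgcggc
Camk2b, chr11:6065719-6065858, minus strand: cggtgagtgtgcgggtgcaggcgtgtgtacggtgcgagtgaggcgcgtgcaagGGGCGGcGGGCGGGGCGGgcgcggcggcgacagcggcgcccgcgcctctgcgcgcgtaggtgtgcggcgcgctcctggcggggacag
Camk2d, chr3:126596841-126597000, plus strand: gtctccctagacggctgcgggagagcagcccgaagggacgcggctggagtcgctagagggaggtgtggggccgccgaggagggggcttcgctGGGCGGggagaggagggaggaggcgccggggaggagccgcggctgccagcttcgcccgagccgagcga
Camkk2, chr5:122779381-122779520, minus strand: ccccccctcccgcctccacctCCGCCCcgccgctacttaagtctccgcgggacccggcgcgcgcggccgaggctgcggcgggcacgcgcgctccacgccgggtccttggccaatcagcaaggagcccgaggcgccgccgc
In the full windows of 300 bases, GC made up 72.0% of the Calm3, 77.3% of the Camk2b, 70.3% of the Camk2d and 73.3% of the Camkk2 window, against a median of 52.7% over 32851 windows. GC boxes were matched 1, 3, 3 and 1 times in these genes, and at least once in 35.7% of all windows. A CCAAT box (CCAAT, both strands) was matched in Camkk2 alone of these 4 and in 37.4% of all windows. None of the 4 held a TATA box (TATAAA) or a cAMP response element (TGACGTCA), which 13.6% and 1.79% of all windows did. An AAV-NAT10 peak of Camk2d began 35 bases past the start, so the last 15 bases of its printed line lay inside that peak. The other 3 lines held no peak of either list.

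All 7 genes held a peak in AAV-NAT10 and 3 of them, Camk2d, Camk2g and Camkk2, in AAV-GFP. Calm2, Calm3, Camk2b and Camk4 thus had a peak in AAV-NAT10 only, as did 16.1% of all genes with any peak; no member had one only in AAV-GFP, against 4.29% of all genes, and 79.7% of all genes had one in both. Since the members were selected with these peaks known, nothing is read from their counts. The 21 member peaks of AAV-NAT10 covered 17069 bases and the 10 of AAV-GFP covered 8472 bases. The fold of a peak is its enrichment over background as the authors' peak caller gave it, and its score is -10 times log10 of the caller's p-value, held at about 3100 for the strongest peaks. Both are the authors' values of single peaks, with no replicate error, and a fold in AAV-NAT10 beside one in AAV-GFP is no measure of change.

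**Figure D1:**
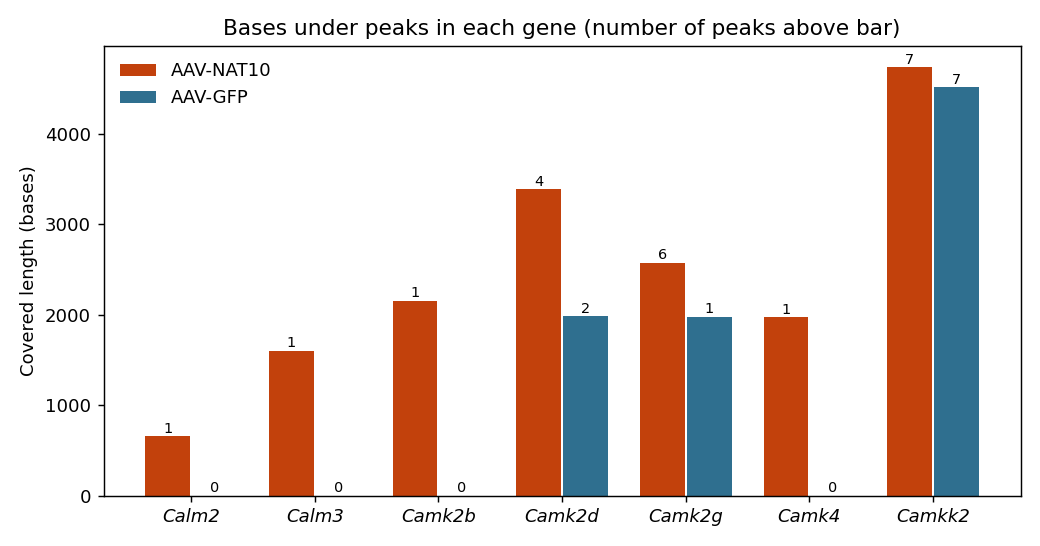
Bases under peaks (vertical axis) for the 7 genes (horizontal axis), AAV-NAT10 bars left of AAV-GFP bars, with the number of peaks above each bar. Calm2, Calm3, Camk2b and Camk4 have 1 AAV-NAT10 peak and no AAV-GFP peak, and Camkk2 has 7 in each list and nearly equal lengths, 4733 bases in AAV-NAT10 and 4513 in AAV-GFP.

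Of the calmodulin genes, Calm3 carried the stronger peak. It covered chromosome 7, 16915379 to 16916976 (mm10); its fold was 5.73 and its score 500.4 in AAV-NAT10, and AAV-GFP had none. This piece of 1598 bases began at the first base of the RefSeq gene, which is the 3′ end of Calm3, a gene on the minus strand. Calm2 had a weak AAV-NAT10 piece of 655 bases (chromosome 17, 87433401 to 87434055; fold 3.44, score 64.2) and no AAV-GFP peak. It also began at the first base of its RefSeq gene. The Calm2 fold was at percentile 3.98 of all AAV-NAT10 peaks (the percent of peaks with a fold at or below it), the Calm3 fold at percentile 39.2.

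The subunit genes of CaM kinase II differed in where their peaks fell. Camk2d, the delta subunit, held 4 AAV-NAT10 peaks with folds of 5.24, 4.05, 5.40 and 15.7 in order along the gene, against 2 AAV-GFP peaks with folds of 5.46 and 6.49. The covered length was 3386 bases in AAV-NAT10 and 1981 bases in AAV-GFP. Both lists marked the 3′ part of this plus-strand gene. There the AAV-NAT10 piece ran from 126842758 to 126845206 on chromosome 3, with a score of 2048. The AAV-GFP list had 2 shorter pieces in its place, 126842758 to 126843414 with a score of 108 and 126843629 to 126844952 with a score of 537. The AAV-NAT10 piece shared their start, bridged the 214 bases between them and ran 254 bases further. Of the remaining AAV-NAT10 peaks of Camk2d, those near the start of the gene were weak, with scores of 67.8 for the piece of 519 bases at 126596986 to 126597504 and 84.5 for the piece of 95 bases at 126599066 to 126599160; the third, a piece of 323 bases at 126840137 to 126840459, had a score of 199. AAV-GFP had no peak at any of these 3 places.

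Within the AAV-NAT10 list the 2449-base piece of Camk2d stood far above the other pieces of its gene. Its fold was 2.90 times the next fold of Camk2d and at percentile 97.2 of the list. Over the 3482 genes with at least 4 AAV-NAT10 peaks the median of this ratio was 1.16, and Camk2d lay at percentile 99.5 of them. For Camk2g, whose peaks follow, the ratio was 1.16, at percentile 49.7. In AAV-GFP the ratio for Camk2d was 1.19 over its 2 pieces, both within the span of that 2449-base piece. It thus compares other parts of the gene and is not set against the 2.90. The measure was chosen after the values were seen. The genes were not matched for number of peaks, and Camk2d had the minimum of 4.

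Camk2g, the gamma subunit, held 6 AAV-NAT10 peaks over 2571 bases and 1 AAV-GFP peak over 1978 bases. The same end of the gene was marked in both lists, on chromosome 14. The AAV-NAT10 piece spanned 20734873 to 20736852 (fold 7.83, score 1472), and the AAV-GFP piece 20734875 to 20736852 (fold 9.33, score 1213). The borders differed by 2 bases. The 5 peaks found in AAV-NAT10 alone were short pieces further into the gene, of 245, 95, 44, 84 and 123 bases. Their folds were 6.51, 3.10, 3.18, 3.81 and 6.75, and 3 of the scores were close to the list's minimum of 50, at 51.5, 50.3 and 57.7. The 245-base piece had a score of 120.3, and the 123-base piece, 20764146 to 20764268, one of 458.

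Camk2b, the beta subunit, best known from neurons, had a single AAV-NAT10 peak of 2155 bases on chromosome 11, 5969672 to 5971826 (fold 5.98, score 450.02), and no AAV-GFP peak. It ended 43 bases short of the 3′ end of this minus-strand gene. Camk2a, the alpha subunit, also known chiefly from neurons, held no peak in either list.

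**Figure D2:**
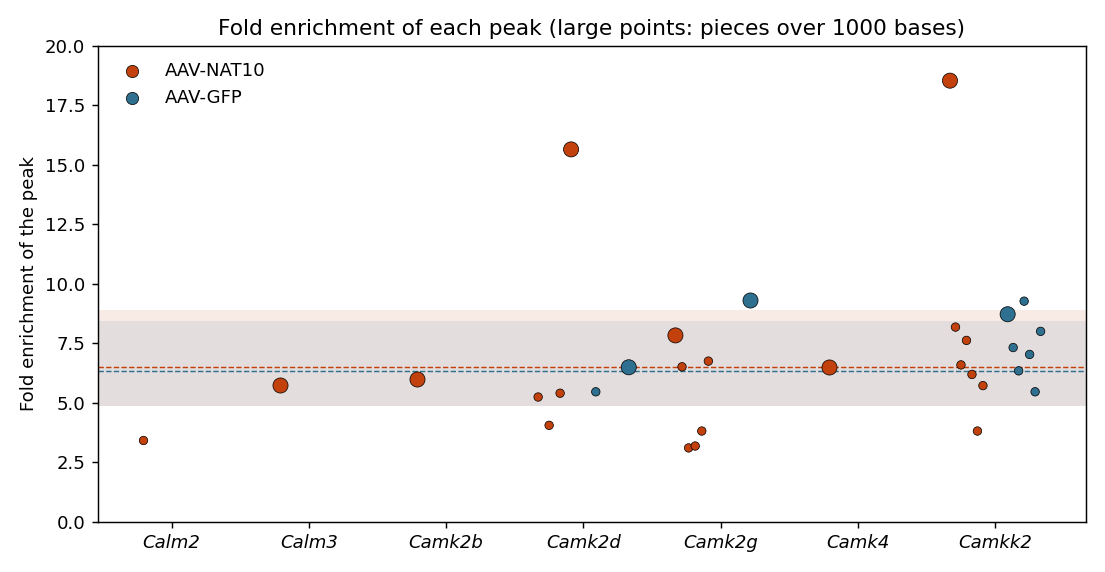
Fold enrichment of every peak (vertical axis) by gene (horizontal axis), AAV-NAT10 left of AAV-GFP in each gene; dashed lines are the medians of the whole lists, 6.51 in AAV-NAT10 and 6.33 in AAV-GFP, and shaded bands their interquartile ranges. The longest pieces of Camkk2 (18.5) and Camk2d (15.7) in AAV-NAT10 lie above all other points, while the AAV-GFP points reach 9.33 at most.

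Camk4, the nuclear kinase best known from neurons and T cells, had 1 AAV-NAT10 peak of 1971 bases on chromosome 18, 33193797 to 33195767 (fold 6.51, score 498), and no AAV-GFP peak. The piece ended at the last base of the RefSeq gene. Its fold equalled the median of the list. Among white blood cell and T cell markers, Ptprc, a gene of all white blood cells, held 11 peaks over 2899 bases in AAV-NAT10 and 9 over 2949 bases in AAV-GFP, and Cd3e, Cd4 and Cd8a held none in either list; their part in the Camk4 peak was not tested.

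The 4 genes with a peak in AAV-NAT10 alone were compared with the 1427 genes of that kind. Each of the 4 had a single peak, as did 67.8% of the 1427. By score, Calm3, Camk4 and Camk2b lay at percentiles 85.0, 84.7 and 83.0 of these genes, and Calm2 at percentile 11.9. By covered length they lay at percentiles 83.6, 90.0, 91.8 and 46.3 in the same order. The median gene of this kind had a highest score of 146 and 710 covered bases, so the pieces of Calm3, Camk4 and Camk2b were above it in both, and that of Calm2 was below it in both.

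Camkk2, the upstream kinase, held 7 peaks in each list, over 4733 bases in AAV-NAT10 and 4513 bases in AAV-GFP, and 5 of the 7 had the same borders in both. At the largest of these, 3076 bases at chromosome 5, 122731170 to 122734245, the fold was 18.5 with a score at the ceiling in AAV-NAT10, and 8.72 with a score of 2438 in AAV-GFP. The shared 88-base piece, 122743870 to 122743957, had folds of 7.62 in AAV-NAT10 and 9.27 in AAV-GFP. The 200-base piece had 6.19 in AAV-NAT10 and 7.03 in AAV-GFP, the 89-base piece 3.81 in AAV-NAT10 and 5.46 in AAV-GFP. The 529-base piece, 122763774 to 122764302, had 5.72 in AAV-NAT10 and 8.0 in AAV-GFP. The order of the pieces by fold thus differed between the lists. By score the 3076-base piece was the highest in both. In AAV-GFP its 2438 stood beside 428 for the 529-base piece and 399 for the 88-base piece. In AAV-NAT10 the 3076-base piece had the highest fold of the gene, 2.27 times the next, a ratio at percentile 98.0 among the 3482 genes that had 4 or more peaks. As for Camk2d, this ratio was chosen after the values were seen, and the genes were not matched for number of peaks. In AAV-GFP the 88-base piece had the highest fold, 1.06 times that of the 3076-base piece, at percentile 25.2 among 2816 such genes. Of the peaks with unequal borders, a 650-base piece in AAV-NAT10 ended at the same base as a 416-base piece in AAV-GFP, with folds of 6.59 in AAV-NAT10 and 6.34 in AAV-GFP, and 1 short piece per list (101 bases in AAV-NAT10, 115 bases in AAV-GFP) had no counterpart.

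The position of the 3076-base piece in the Camkk2 gene depends on the gene model. RefSeq places the 3′ end of this minus-strand gene 12790 bases beyond it, and the last 11360 bases of that model overlap P2rx4, an ATP-gated channel gene (122707518 to 122729739). The piece itself lay 1430 bases clear of P2rx4. No member peak of either list overlapped another RefSeq gene.

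**Figure D3:**
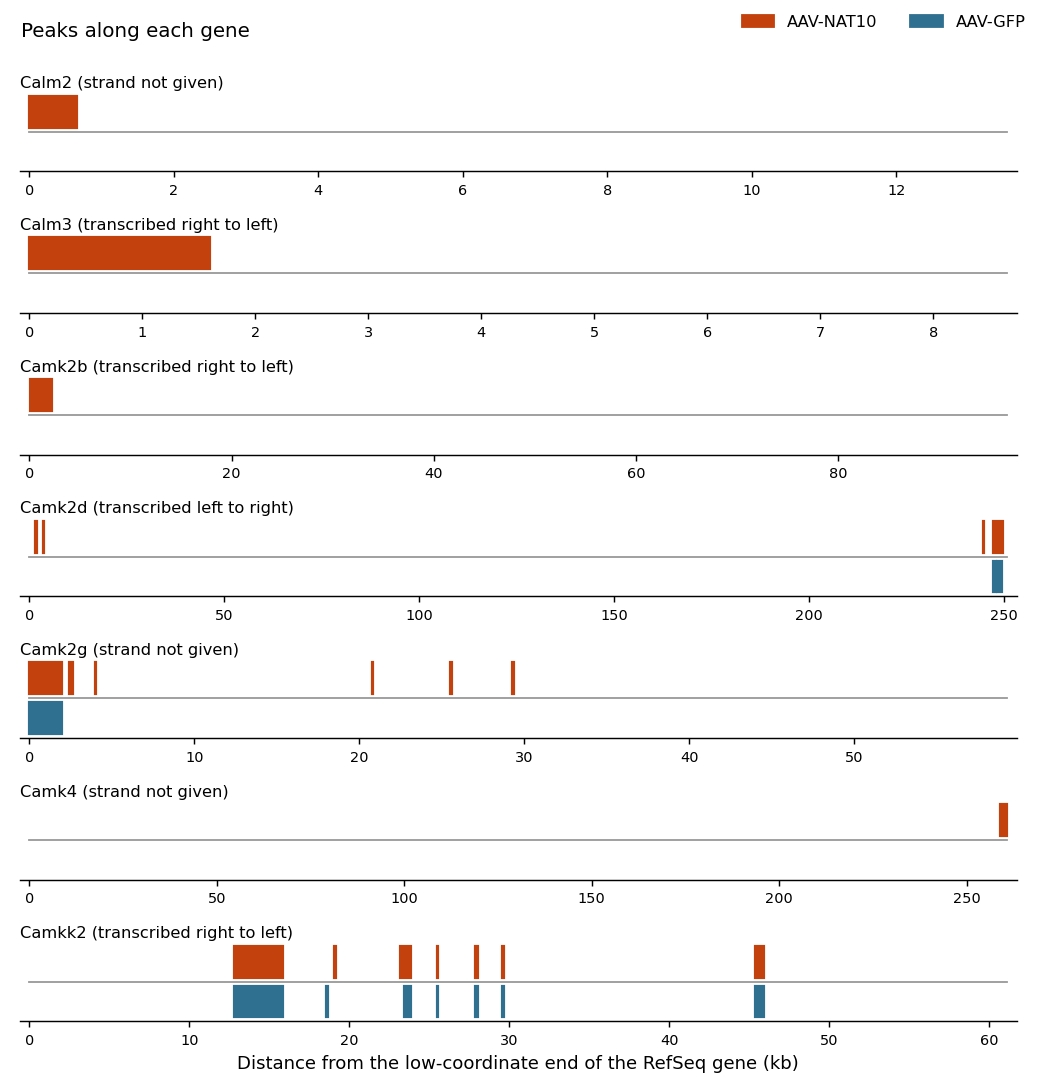
Peaks along each gene, AAV-NAT10 above and AAV-GFP below the grey line that marks the gene, by distance in kb from the low-coordinate end of the RefSeq gene; the scale differs between genes and the shortest pieces are widened to a visible line. The single peaks of Calm2, Calm3, Camk2b and Camk4 lie at 1 end of their gene, whereas those of Camkk2 are spread over it at nearly the same places in both lists.

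A peak within 100 bases of either end of the RefSeq gene was found for 5 of the 7 members in AAV-NAT10 (Calm2, Calm3, Camk2b, Camk2g and Camk4) and for 1 of 3 in AAV-GFP (Camk2g). Camk2d was not among them. Its first AAV-NAT10 peak lay 1499 bases past the low end of the RefSeq gene, which begins before the start site of the printed line. Its last AAV-NAT10 peak ended 1120 bases before the high end. Over all genes with a RefSeq match the shares were 61.9% in AAV-NAT10 and 59.0% in AAV-GFP, so such end pieces are common in these lists. Among genes with a known strand, 55.9% in AAV-NAT10 and 54.8% in AAV-GFP had a peak at the 3′ end. The shares at the 5′ end were 15.6% in AAV-NAT10 and 11.1% in AAV-GFP. The distance of 100 bases was set after the values were seen. Of the 21 AAV-NAT10 member peaks, 6 were longer than 1500 bases, 1 each in the 6 members other than Calm2, and all of them were the long pieces described above; 10 were under 250 bases.

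Read over all member peaks, folds in AAV-NAT10 ranged from 3.10 to 18.5 with a median of 5.98, and 7 of 21 were above the list's median. In AAV-GFP they ranged from 5.46 to 9.33 with a median of 7.18, and 8 of 10 were above the list's median. Camkk2 alone supplied 7 of these 10 peaks, and 7 of the 21 in AAV-NAT10. Scores under 100 were found for 7 of the 21 AAV-NAT10 peaks and 1 of the 10 AAV-GFP peaks, against 17.2% of the whole AAV-NAT10 list and 20.9% of the whole AAV-GFP list. Of the AAV-NAT10 member peaks 8 overlapped an AAV-GFP peak by at least 1 base (38.1%, exact 95% interval 18.1 to 61.6, counting error only), where the share over the whole list was 71.5%; of the AAV-GFP member peaks 9 overlapped an AAV-NAT10 peak (90.0%, 55.5 to 99.7), where it was 87.4%. Peaks of a gene share its RNA, so these intervals are too narrow. The 4 genes chosen with a peak in AAV-NAT10 alone lower the first share by their 1 peak each. The other AAV-NAT10 member peaks without overlap lay in Camk2g, Camk2d and Camkk2. The lower share was not tested.

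All 3 members with a peak in both lists had a greater covered length in AAV-NAT10 than in AAV-GFP, by 1405 bases for Camk2d, 593 for Camk2g and 220 for Camkk2. The same was true of 58.8% of the 7081 shared genes, whose median difference was 93 bases; the opposite held for 27%. When equal numbers of top peaks were taken from both lists, the Camkk2 difference turned to -617 bases and that of Camk2g was 125. With a score of at least 100, that of Camk2d was 791. In likeness over covered length and highest fold in both lists (Euclidean distance of 4 log2 values over 6823 genes), the nearest gene to Camkk2 was Plxnb1 (distance 0.083), to Camk2g it was Lars (0.15), and to Camk2d it was Prkcz (0.34).

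Of the family's further genes, 16 calmodulin-like, CaM kinase and CaM kinase II inhibitor genes were listed as relatives and 13 held no peak in either list, among them Camk1, Camk1g, Camk2a, Camkk1 and Camk2n2. Camk1d, a CaM kinase I gene that Camkk2 kinase acts on, held 10 peaks over 9569 bases in AAV-NAT10 and 7 over 6796 bases in AAV-GFP. Its 5645-base piece at the 3′ end (chromosome 2, 5293457 to 5299101) had the same borders in both lists and scores at the ceiling, with folds of 10.1 in AAV-NAT10 and 7.0 in AAV-GFP. All 7 AAV-GFP peaks of Camk1d overlapped an AAV-NAT10 peak. Camk2n1, an inhibitor of CaM kinase II, was listed in both but at different places. In AAV-NAT10 its piece of 3409 bases ended at the last base of the gene (fold 5.70, score 620.2). In AAV-GFP its piece of 526 bases began 322 bases before the RefSeq gene (fold 4.82, score 58.7). Cask, a scaffold with a kinase-like domain, was covered over 8275 bases in AAV-NAT10 and 7446 in AAV-GFP.

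In the wider list of 95 calcium and calmodulin genes that are not members, 48 were shared by the lists. A further 4 appeared in AAV-NAT10 alone, 2 in AAV-GFP alone and 41 nowhere. Of the 54 with a peak, 7.41% thus had it in AAV-NAT10 alone and 3.70% in AAV-GFP alone, beside 16.1% and 4.29% of all genes in the same order. The list leaves out the members, 4 of which had a peak in AAV-NAT10 alone, so the first share is lower than it would be with them. The listed genes found only in AAV-NAT10 were Rcan2, a calcineurin regulator (1728 bases), Dapk2, a calmodulin-regulated death-associated kinase (1648), Micu2, a gatekeeper of mitochondrial calcium uptake (1426), and Prkag1, a subunit of AMP-activated protein kinase (684). The 2 found only in AAV-GFP were Pde1b, a calmodulin-activated phosphodiesterase (1241 bases), and Ppp3cc, a catalytic subunit of calcineurin (128). Among the 48 shared genes, covered length was greater in AAV-NAT10 for 37, greater in AAV-GFP for 9 and equal for 2. These are shares of 77.1% and 18.8%, beside 58.8% and 27% over all shared genes; the difference was not tested. The median difference was 225 bases, beside 93 bases over all shared genes.

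**Figure D4:**
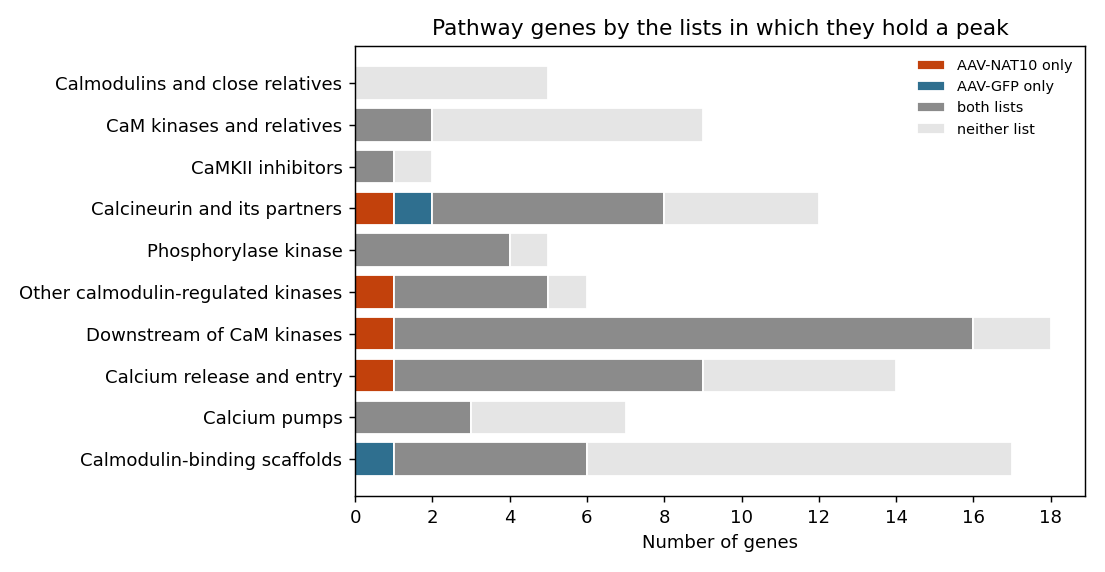
Number of genes (horizontal axis) in each group of the pathway list by the lists in which they hold a peak. Most genes with a peak hold it in both lists (48 of 54), and the group listed as downstream of CaM kinases has the most genes with a peak, 16 of 18.

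By role, a peak was held by 5 of 6 other calmodulin-regulated kinases and 4 of 5 phosphorylase kinase genes, and by 54 of all 95 listed genes. Genes listed as downstream of CaM kinases held peaks most often, 16 of 18. Of these 18 genes 15 were shared, Prkag1 was found in AAV-NAT10 alone and 2 had none. Crtc2, a coactivator of gluconeogenic genes in fasting liver, was covered over 1751 bases in AAV-NAT10 and 646 in AAV-GFP. Hdac4, a deacetylase that CaM kinases drive out of the nucleus, was covered over 4727 bases in AAV-NAT10 and 4878 in AAV-GFP, and Camta1, a calmodulin-binding transcription activator, over 119 in AAV-NAT10 and 283 in AAV-GFP. Among calcineurin genes, 6 of 12 were shared, and Nfatc1, a transcription factor that calcineurin activates, was covered over 5457 bases in AAV-NAT10 and 5053 in AAV-GFP. Phosphorylase kinase, which holds calmodulin as a built-in subunit and starts glycogen breakdown, had 4 of 5 genes shared: Phkg2, the liver catalytic subunit, was covered over 2190 bases in AAV-NAT10 and 1367 in AAV-GFP, Phkb over 4447 in AAV-NAT10 and 3796 in AAV-GFP, and Phka1 over 3537 in AAV-NAT10 and 3554 in AAV-GFP. Eef2k, the calmodulin-dependent kinase of elongation factor 2, was covered over 5019 bases in AAV-NAT10 and 3324 in AAV-GFP.

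Genes that set the calcium signal were read alongside. Of 14 genes of calcium release and entry 8 were shared and 5 had no peak. Stim1, the sensor of calcium stores, was covered over 3613 bases in AAV-NAT10 and 1839 in AAV-GFP. Of the 3 inositol trisphosphate receptor genes Itpr3 held no peak and the others ran the other way, Itpr1 with 8165 bases in AAV-NAT10 and 8812 in AAV-GFP, and Itpr2, a main form in hepatocytes, with 11058 in AAV-NAT10 and 11473 in AAV-GFP. Of 7 pumps 3 were shared; Atp2a2, which refills the endoplasmic reticulum, was covered over 1534 bases in AAV-NAT10 and 1069 in AAV-GFP, and Atp2b1, which exports calcium, over 6027 in AAV-NAT10 and 5897 in AAV-GFP. Of the 17 calmodulin-binding scaffolds, cyclases and phosphodiesterases 5 were shared, with Iqgap2 covered over 3987 bases in AAV-NAT10 and 2849 in AAV-GFP and Iqgap1 over 3699 in AAV-NAT10 and 2674 in AAV-GFP.

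The lists as a whole set the frame for these values. AAV-NAT10 held 41511 peaks in 8508 genes and AAV-GFP 33968 peaks in 7462 genes, with unknown read depth, and differences in depth or pull-down yield enter each count. Nat10 itself held 10 peaks with a highest fold of 17.5 in AAV-NAT10 and 9 with a highest fold of 8.20 in AAV-GFP. Of 10 hepatocyte markers only Apob and Cps1 held a peak, both in AAV-NAT10 alone, and Alb held none in either list, while 6 of 7 sinusoidal endothelial, 4 of 4 Kupffer cell and 3 of 4 stellate cell markers held one; their part in the member peaks was not tested. Fold is taken over the input library, so a gene without a peak may still be expressed or bound, and in whole liver fewer cells of a type and less RNA per cell cannot be told apart.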

How the data were processed

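RIP-seq peak lists of mouse liver, 1 per virus, were used as the authors deposited them. Per the file headers, peaks carry MACS names, and fold enrichment is a linear ratio of each peak over background. The deposited score equals the column of -10 log10 p-values, per the file headers; the FDR column was not used. Coordinates are on mm10, the build in the submitters' processing notes. For the aligner, read filters and MACS version nothing is stated there. Positions are counted from 1. Pieces appear cut to exons, so a fold may be that of a longer peak, and strand is not listed.

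Peaks were taken by gene name. Covered length is the sum of a gene's peak lengths, and overlap means at least 1 shared base. RefSeq (GRCm38.p6) matched 7 of 7 members by symbol and gave strand and promoter for 4. With 1 library of each kind, no test between viruses was possible and no p-value is given; intervals are exact (Clopper-Pearson, 95%). Members and lists were chosen with earlier results of these data known. Genes named from the pathway list were, in each group, at most 2 per virus by the size of the covered length difference, together with relatives by whether they held a peak, genes with a peak in 1 list alone, and for each shared member the nearest gene. Motifs inside peaks were not analysed here. Python 3.11.15, pandas 2.3.3 and SciPy 1.17.1 were used, and the overlap and percentile code was tested on simulated data.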

Additional observations from a re-analysis of the deposited data

How the results depend on the processing

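Read depth is unknown for these lists, so weak peaks limit the counts. Of the 4 members with a peak in AAV-NAT10 alone, 3 were left with a score of at least 100 or with equal numbers of top peaks (1 member then without any peak, Calm2), 1 with the 50% of peaks of highest fold in each list (Camk4; 3 members without any) and none where at least 2 peaks per gene were asked for (4 members without any); under that last rule Camk2g, otherwise in both lists, was the 1 member in AAV-NAT10 alone. Camk4 stayed in that 50% by a tie rule, since its fold of 6.51 equalled the list's median and equal folds were ordered by score. No alternative gave a member with a peak in AAV-GFP alone. The share of AAV-NAT10 member peaks that overlapped AAV-GFP peaks was 62.5% of 8 peaks in that 50% and 42.9% of 7 with equal numbers of top peaks. The reverse share, of AAV-GFP member peaks, was 62.5% of 8 and 60% of 5 there. No whole-list shares under these settings stand beside them, so nothing is read from these few peaks. The median covered length difference over the 7 members, 1405 bases, became 0 in that 50%, 1125 with equal numbers of top peaks, 791 with a score of at least 100 and 1310 without pieces under 100 bases. With all peaks it was 593 over the 3 members in both lists and 147 over all genes with a peak in either list. Choosing genes with a peak in AAV-NAT10 alone raises the members' median by itself. Camkk2 turned to -509 bases in that 50% and -617 with equal numbers, and Camk2g was at 125 in both and at 370 with a score of at least 100 or without pieces under 100 bases. Pathway genes with a peak in AAV-NAT10 alone, 4, became 7 in that 50% and 10 with at least 2 peaks per gene; those in AAV-GFP alone, 2, became 1 with at least 2 peaks per gene or without pieces under 100 bases and 3 in that 50%, with equal numbers (as many as in AAV-NAT10 alone) or with a score of at least 100. Each alternative takes fewer peaks by construction; other causes were not tested. No paired analysis was possible because each group is 1 library.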

Other observations

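The lists' own pathway annotation, read after the data were seen, placed 6 of the 7 members in calcium signalling (all but Camkk2) and 5 in glucagon signalling (Calm2, Calm3, Camk2b, Camk2d and Camk2g). Of the 57 other calcium signalling genes with a peak, 9 had it in AAV-NAT10 alone (15.8%), 3 in AAV-GFP alone and 45 in both. Of the 54 other glucagon signalling genes 7 had it in AAV-NAT10 alone (13.0%), 1 in AAV-GFP alone and 46 in both. In AMPK signalling, which holds Camkk2, 12 of the 83 other genes had a peak in AAV-NAT10 alone (14.5%) and none in AAV-GFP alone. In insulin signalling, which holds Calm2 and Calm3, 8 of 97 others had it in AAV-NAT10 alone (8.25%). With the members counted in, the shares in AAV-NAT10 alone were 20.6% for calcium, 16.9% for glucagon, 14.3% for AMPK and 10.1% for insulin signalling, beside 16.1% of all genes with any peak; none was tested.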
